A study of Mus musculus with 18 samples.

Results

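Reactive astrocytes are described by sets of genes, and the pan-reactive set holds genes that rise in astrocytes after several kinds of injury. The 8 genes described here are Lcn2, Serpina3n, Steap4, S1pr3, Timp1, Hspb1, Cp and Aspg, chosen by name as pan-reactive astrocyte markers. All 8 were among the 54838 genes of the count table, and all 8 were among the 20067 genes that passed the filter on low counts. The study measured RNA from cultured mouse cells while they differentiated from neural stem cells into astrocytes, under normal conditions and in the presence of TNF, and asked how this inflammatory signal alters the process. Neural stem cells came from the ventricular zone of wild-type C57BL/6J brains at embryonic day 14 and grew as free-floating neurospheres (NSPs) with EGF at 20 ng/ml. Removing EGF, adding 10% fetal bovine serum and plating on poly-L-ornithine differentiated the cells for 24 h, 72 h or 1 week. The 6 conditions, with 3 libraries each, were proliferating NSPs, 24 h untreated, 24 h with TNF at 50 ng/ml, 72 h untreated, 72 h with TNF at the same dose, and 1 week untreated. There was no TNF library at 1 week, so TNF could be compared with its untreated control only at 24 h and 72 h, and all differentiated conditions, the controls included, carried serum.

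TNF acts through its receptors on the NF-kB pathway, a main route by which inflammatory signals switch on genes in astrocytes. Of the 8 markers, 4 encode secreted proteins: Lcn2 (lipocalin 2, which binds iron-carrying siderophores), Serpina3n (a serine protease inhibitor), Timp1 (an inhibitor of matrix metalloproteinases) and Cp (ceruloplasmin, a copper enzyme that oxidizes iron and aids its export). Steap4 encodes a membrane metalloreductase that reduces iron and copper, and S1pr3 a receptor for the lipid sphingosine 1-phosphate. Hspb1 encodes a small heat shock protein with chaperone activity, and Aspg an asparaginase.

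The libraries held 12509693 to 22549627 counts, and levels are given as counts scaled to library size after TMM normalization (CPM). The labels do not say whether the 3 libraries of a condition came from separate cultures or brains. The methods name single brains as the source of the stem cells. They state only in general, without naming these libraries, that data come from at least 3 independent biological experiments. The p-values therefore measure the spread between these libraries, and how much of it is technical is not known. RNA quality numbers ranged from 3.4 to 10 over the study and are not given per library. The label of the TNF groups was checked with 9 known NF-kB targets, of which 6 could be tested, and all 6 were higher with TNF at 24 h and at 72 h. For example, Nfkbia, the inhibitor that NF-kB induces, was higher by 2.44 ± 0.17 (log2, SE) at 24 h and by 2.80 ± 0.17 at 72 h, with edgeR adjusted p-values of 6.87e-08 and 1.20e-08. Astrocyte markers (8 genes) summed to 5324 to 5789 CPM at 24 h and 5696 to 8145 CPM at 72 h, but to only 2683 to 3247 CPM at 1 week, below the 5128 to 5364 CPM of NSPs. Gfap, the filament protein of astrocytes, averaged 63.4 ± 15.9 CPM (SD, n = 3) at 1 week against 2432 ± 673 CPM at 72 h, so the 1 week libraries carried low levels of this defining marker. Of 11 myeloid markers, 8 stayed under 1 CPM in every library and C1qa, C1qb and Ly6g had no count in any, while of 7 neuronal markers Map2 made up nearly all of the sum of 1438 to 2093 CPM. Group means of Map2 were 1531 to 1870 CPM, those of Tubb3 5.05 to 37.4 CPM and those of Dcx at most 5.22 CPM, with no Dcx count at 1 week. These were bulk cultures, in which fewer cells of a type and less RNA per cell cannot be told apart.

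The first replicate of each TNF group stood apart from its partners. Over all tested genes, its root mean square distance from the mean of the other 2 libraries was 0.61 (log2 CPM) at 24 h and 0.58 at 72 h, against 0.41 to 0.44 for those partners. Distances elsewhere ran from 0.33 to 0.65, with the largest in the first NSP library. The neural stem cell and proliferation markers (6 genes) summed lowest in the first library of each TNF group, to 802 CPM against 1154 and 1120 CPM at 24 h and to 581 CPM against 911 and 901 CPM at 72 h. Of these genes, Mki67 was lowest in the first library at 24 h (14.4 CPM against 38.0 and 29.4) and highest in the first library at 72 h (10.0 CPM against 1.62 and 1.75). In the first 72 h TNF library the mural and fibroblast markers (8 genes) summed to 56.6 CPM, against 190 and 206 CPM in the other 2 libraries. Of these genes, Pdgfrb, Col1a1, Col1a2, Dcn and Lum stayed under 1 CPM in every library of the study. The sums of this list therefore come mostly from Rgs5, Acta2 and Pdgfra, and Pdgfra is also in the oligodendrocyte lineage list. Where leaving out either library changed a marker's call, the value without it is given beside the result.

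The regions just before the start of 3 markers are shown because they contrast the members with a TNF response at both times (Steap4, Cp) with a member called at neither time (Hspb1), whose counts were low. All 8 markers had a RefSeq promoter window on GRCm38.p6, Cp with 2 of them, and the 250 bases before each start were searched on both strands for an NF-kB consensus of 10 bases and for the motifs of STAT (TTCNNNGAA), C/EBP (TTGCNNAA), AP-1 (TGANTCA) and heat shock factor (GAANNTTC). Steap4 is on chromosome 5 from 7960457 to 7982213, Cp on chromosome 3 from 19957054 to 20009145 and Hspb1 on chromosome 5 from 135887919 to 135889563, all on the plus strand of GRCm38 in GENCODE M21. Capitals mark matches, and each stretch runs 5′ to 3′ on the plus strand and lies outside the annotated transcripts of its gene.
Steap4, 235 bases at chr5:7960222-7960456: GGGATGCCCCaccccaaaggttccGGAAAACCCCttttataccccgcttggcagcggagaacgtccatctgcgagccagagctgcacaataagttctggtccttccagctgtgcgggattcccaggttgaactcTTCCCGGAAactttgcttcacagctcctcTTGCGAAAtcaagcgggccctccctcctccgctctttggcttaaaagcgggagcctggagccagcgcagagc
Cp, 250 bases at chr3:19956804-19957053: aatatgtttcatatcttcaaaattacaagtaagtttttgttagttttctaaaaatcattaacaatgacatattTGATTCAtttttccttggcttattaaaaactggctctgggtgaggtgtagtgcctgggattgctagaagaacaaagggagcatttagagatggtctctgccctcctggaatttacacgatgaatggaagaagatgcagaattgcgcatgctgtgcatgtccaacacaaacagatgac
Hspb1, 250 bases at chr5:135887669-135887918: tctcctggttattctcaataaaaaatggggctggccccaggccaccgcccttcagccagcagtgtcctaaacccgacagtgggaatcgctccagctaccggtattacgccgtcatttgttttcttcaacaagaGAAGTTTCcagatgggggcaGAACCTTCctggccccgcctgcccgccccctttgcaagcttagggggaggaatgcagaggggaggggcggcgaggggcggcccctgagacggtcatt

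In the Steap4 stretch, the capitals mark 2 NF-kB matches at its upstream end, of which the first reads as a match on both strands, followed by a STAT match and a C/EBP match. The Cp stretch held a single AP-1 match, and the second Cp window, which starts further downstream, a single C/EBP match. The Hspb1 stretch held 2 heat shock matches. In the other windows, that of Lcn2 held a C/EBP match and those of Serpina3n, S1pr3, Timp1 and Aspg held none of the 5 motifs. Among all 32851 RefSeq windows, the NF-kB consensus was present in 7.25%, the STAT motif in 7.02%, C/EBP in 9.56%, AP-1 in 6.75% and the heat shock motif in 6.69%. A match describes these letters only, and binding was not measured here.

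**Figure D1:**
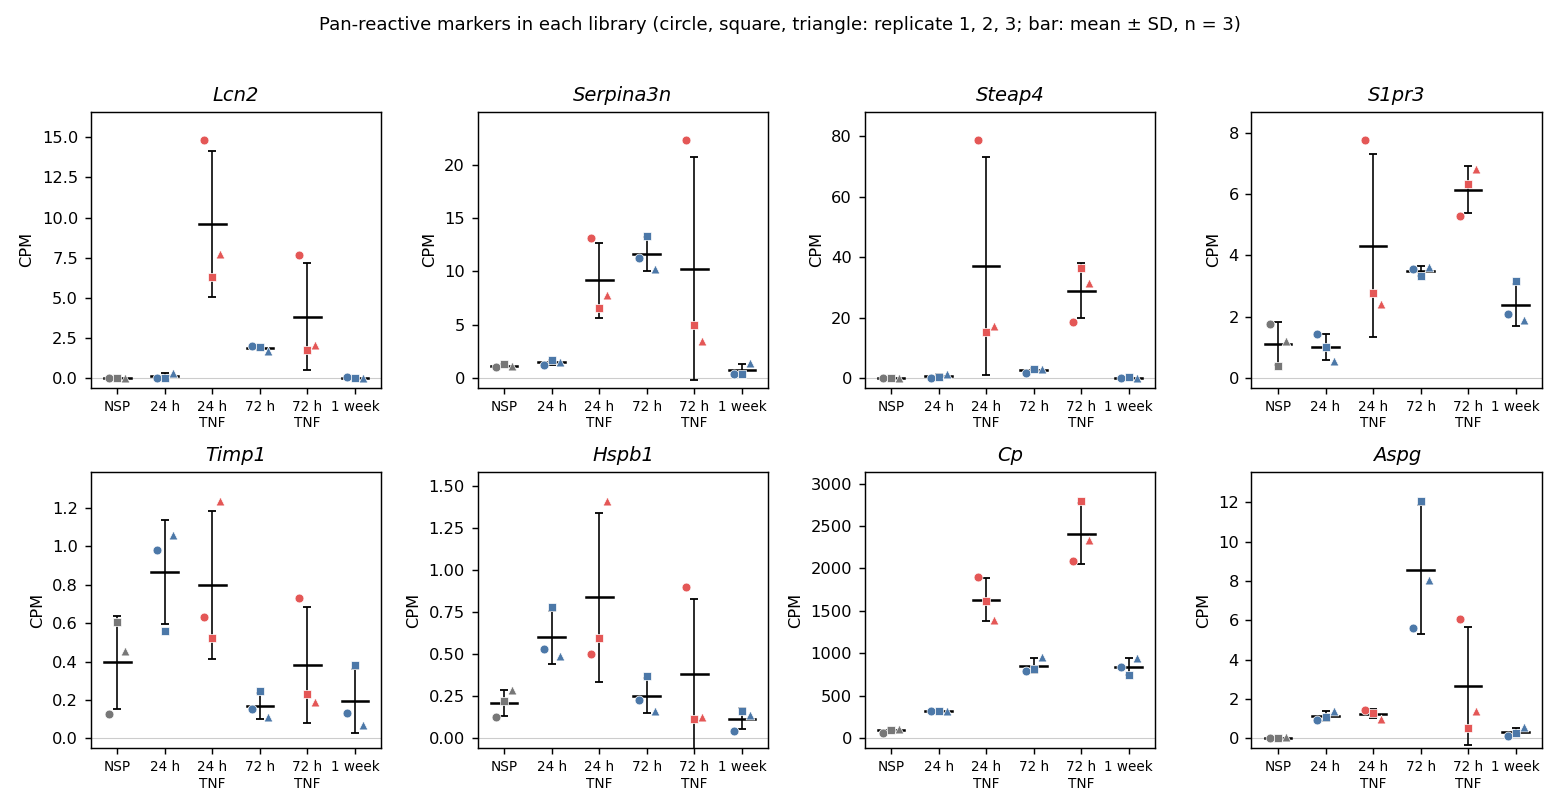
Level of each marker in CPM (vertical axis, from 0, own scale per panel) in the 3 libraries of the 6 conditions. Symbols are replicates 1 to 3, horizontal bars the means and error bars the SD. Cp is the only marker above 100 CPM, Timp1 and Hspb1 stay under 1.5 CPM, and the first TNF replicate (circle) is the highest of its group for 6 markers at 24 h.

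TNF for 24 h raised 5 of the 8 markers: Lcn2, Serpina3n, Steap4, S1pr3 and Cp. Across the 20067 genes tested, edgeR's quasi-likelihood test with Benjamini-Hochberg adjustment called 3.5% in this comparison (adjusted p under 0.05, either direction), against 5 of 8 markers (62.5%). The median log2 fold change was 2.22 over the 8 markers and -0.01 over all genes tested. Aspg, Timp1 and Hspb1 did not pass the test.

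Among the genes of secreted proteins, Lcn2 had 0, 0 and 4 counts in the 3 untreated 24 h libraries and reached 14.8, 6.26 and 7.72 CPM with TNF. Every TNF library was above every untreated library, and the difference was 6.57 ± 0.82 (log2, SE, edgeR adjusted p = 0.000166). Because 2 of the untreated libraries held no Lcn2 count, the size of this difference is less certain than its direction, and it ranged from 5.85 to 10.30 when single libraries were left out. Cp rose from 321, 315 and 318 CPM to 1894, 1612 and 1390 CPM, and its difference had the smallest SE of the 8 markers. The Cp difference was 2.36 ± 0.18 (log2, SE, edgeR adjusted p = 2.47e-07), a 5.13-fold rise. Serpina3n went from 1.21, 1.73 and 1.47 CPM to 13.2, 6.56 and 7.78 CPM, again with no overlap. The Serpina3n difference was 2.62 ± 0.57 (log2, SE, edgeR adjusted p = 0.0113). Its call was lost without the first TNF library (2.25, edgeR adjusted p = 0.0562) and without any of the untreated libraries (edgeR adjusted p = 0.0752, 0.0547 and 0.0625 without replicates 1, 2 and 3).

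Transcripts of both membrane proteins rose. Steap4 was at 0.151, 0.224 and 1.47 CPM in untreated cells (2, 4 and 18 counts) and at 78.5, 15.2 and 17 CPM with TNF. The TNF libraries were all higher, and the first of them stood far above its partners. The Steap4 difference was 6.01 ± 0.76 (log2, SE, edgeR adjusted p = 0.000194), and it passed the test without any single library, ranging from 4.79 to 7.52. S1pr3 went from 1.44, 1.01 and 0.57 CPM to 7.75, 2.76 and 2.42 CPM, where the first TNF library again stood well above the others. The S1pr3 difference of 2.09 ± 0.47 (log2, SE, edgeR adjusted p = 0.0163) fell to 1.33 without that library (edgeR adjusted p = 0.136), and the call was also lost without the second (edgeR adjusted p = 0.0823) or replicate 3 (edgeR adjusted p = 0.107) of the untreated library.

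The intracellular markers and Timp1 showed no call. Aspg was at 0.907, 1.06 and 1.39 CPM without TNF and 1.45, 1.27 and 1.00 CPM with it, and the groups overlapped (0.15 ± 0.66, log2, SE, edgeR adjusted p = 0.958). Timp1 had 10 to 13 counts per library in untreated cells and 7 to 21 with TNF, and Hspb1 6 to 14 and 8 to 24. The differences were -0.07 ± 0.52 for Timp1 and 0.47 ± 0.57 for Hspb1 (log2, SE, edgeR adjusted p = 0.977 and 0.803). In the first TNF library 6 of the 8 markers were the highest of their group (Lcn2, Serpina3n, Steap4, S1pr3, Cp and Aspg) and Hspb1 the lowest. In that library the myeloid list summed to 18 CPM, of which Cd68 held 15.3, against 8.5 and 8.08 CPM in the other TNF libraries and 4.86 to 6.27 CPM in untreated ones. Its astrocyte list summed to 6199 CPM, the highest of its group (4875 and 4941 CPM in the others). Gfap held 1871 CPM of that sum, against 463 CPM at its lowest in the group, and without Gfap this library was not the highest. The oligodendrocyte lineage list of the first library summed to 165 CPM, the lowest (311 and 396 CPM). Its mural and fibroblast list summed to 101 CPM against 535 and 500 CPM in the other TNF libraries. The microglial marker Aif1 and the leukocyte marker Ptprc stayed at or below 0.378 CPM in all 3 TNF libraries of this time, and the part of any of these values in the marker levels was not tested.

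**Figure D2:**
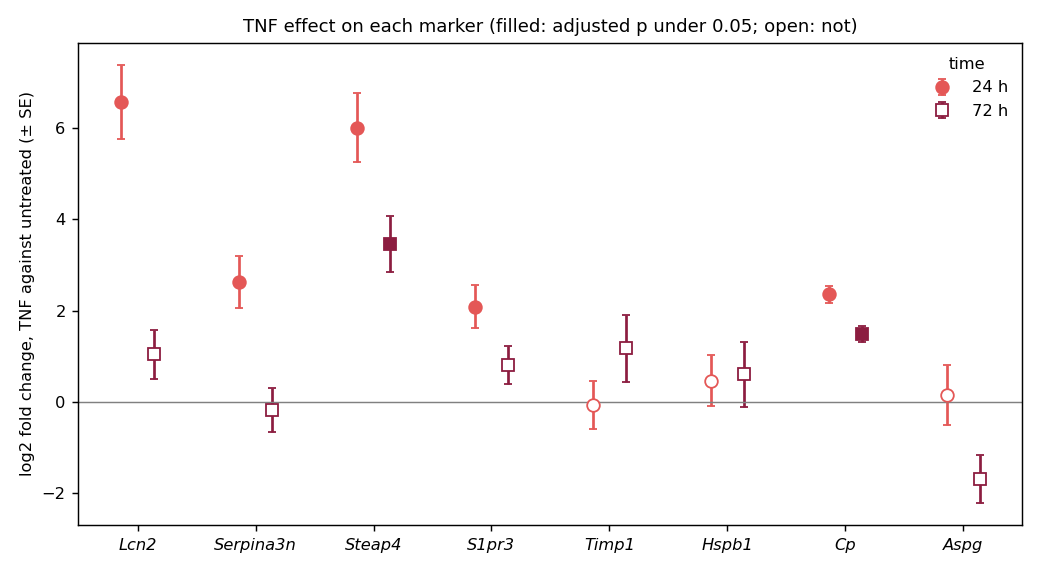
TNF effect on each marker at 24 h (circles) and 72 h (squares) as log2 fold change against untreated cells of the same time, with SE worked out from the F statistic of edgeR. Filled symbols have an adjusted p under 0.05: 5 markers at 24 h and only Steap4 and Cp at 72 h.

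With TNF for 72 h, Steap4 and Cp were the 2 markers called, both higher than in untreated cells. The test called 9.56% of all genes at this time and 2 of 8 markers (25%), with a median log2 fold change of 0.93 over the markers and -0.01 over all genes tested. The comparison started from another baseline, since 6 of the 8 markers had changed between 24 h and 72 h in untreated cells.

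Steap4 was at 1.74, 3.01 and 3.03 CPM at 72 h and at 18.7, 36.4 and 31.5 CPM with TNF. The groups did not overlap, and here the first TNF library was the lowest of its group. The difference was 3.46 ± 0.62 (log2, SE, edgeR adjusted p = 0.00146), an 11-fold rise that passed the test without any single library (3.27 to 3.70). Cp rose from 795, 819 and 955 CPM to 2090, 2798 and 2335 CPM, so that ceruloplasmin transcripts reached their highest level of the study. The Cp difference was 1.49 ± 0.18 (log2, SE, edgeR adjusted p = 2.22e-05) and stayed between 1.39 and 1.59 with single libraries left out. S1pr3 was at 3.56, 3.31 and 3.63 CPM without TNF and 5.30, 6.33 and 6.82 CPM with it. The S1pr3 libraries did not overlap, but the difference of 0.81 ± 0.41 (log2, SE) did not pass the test (edgeR adjusted p = 0.224).

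For 5 markers the value at 72 h moved strongly with the first TNF library: Serpina3n, Aspg, Lcn2, Timp1 and Hspb1. Serpina3n was at 11.3, 13.3 and 10.2 CPM without TNF and at 22.3, 4.93 and 3.50 CPM with it, so the first TNF library lay above all untreated ones and the other 2 below them. With all libraries the difference was -0.18 ± 0.48 (log2, SE, edgeR adjusted p = 0.856), and without the first TNF library it was -1.45 (edgeR adjusted p = 0.0182). Aspg was at 5.60, 12.1 and 8.03 CPM without TNF and at 6.09, 0.522 and 1.38 CPM with it. The Aspg difference was -1.68 ± 0.53 (log2, SE) and just missed the threshold (edgeR adjusted p = 0.0525). Without the first TNF library it was -3.18 (edgeR adjusted p = 0.000188), without the first untreated library -1.88 (edgeR adjusted p = 0.0365), and DESeq2 called it with all libraries (-1.69, DESeq2 adjusted p = 0.0363). Lcn2 was at 1.97, 1.90 and 1.71 CPM without TNF and at 7.66, 1.74 and 2.06 CPM with it. The Lcn2 difference of 1.05 ± 0.54 (log2, SE, edgeR adjusted p = 0.24) was 0.04 without the first TNF library.

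Timp1 (2 to 4 counts per untreated library) and Hspb1 (3 to 6) were again low, with 13 and 16 counts in the first TNF library and 2 to 4 in the others. Their differences were 1.18 ± 0.73 and 0.61 ± 0.71 (log2, SE, edgeR adjusted p = 0.33 and 0.629), and without the first TNF library 0.32 and -1.02 (edgeR adjusted p = 0.876 and 0.499). The first TNF library was thus the highest of its group for Lcn2, Serpina3n, Timp1, Hspb1 and Aspg and the lowest for Steap4, S1pr3 and Cp. Between the groups, the astrocyte list summed to 3485 to 4888 CPM with TNF and 5696 to 8145 CPM without, the oligodendrocyte lineage list (9 genes) to 145 to 185 and 82.4 to 91.7 CPM, the endothelial list (5 genes) to 1.80 to 3.07 and 5.68 to 6.87 CPM, and the neural stem cell and proliferation list to 581 to 911 and 971 to 1374 CPM, none of them overlapping. Gfap alone, a member of the astrocyte list, ran from 217 to 1022 CPM with TNF and from 1855 to 3172 CPM without. Without Gfap the astrocyte sums of the 2 groups overlapped. In the endothelial list, Pecam1, Cldn5 and Cdh5 stayed under 1 CPM in every library, so its low sums come mostly from Kdr and Tek. Within the TNF group, the astrocyte list of the first library summed to 4888 CPM, 1022 CPM of it from Gfap, against 3847 and 3485 CPM in the other 2. The myeloid list of that library summed to 12.2 CPM against 4.87 and 5.07 CPM, 9.58 CPM of it from Cd68. The part of these differences in the marker values was not tested.

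**Figure D3:**
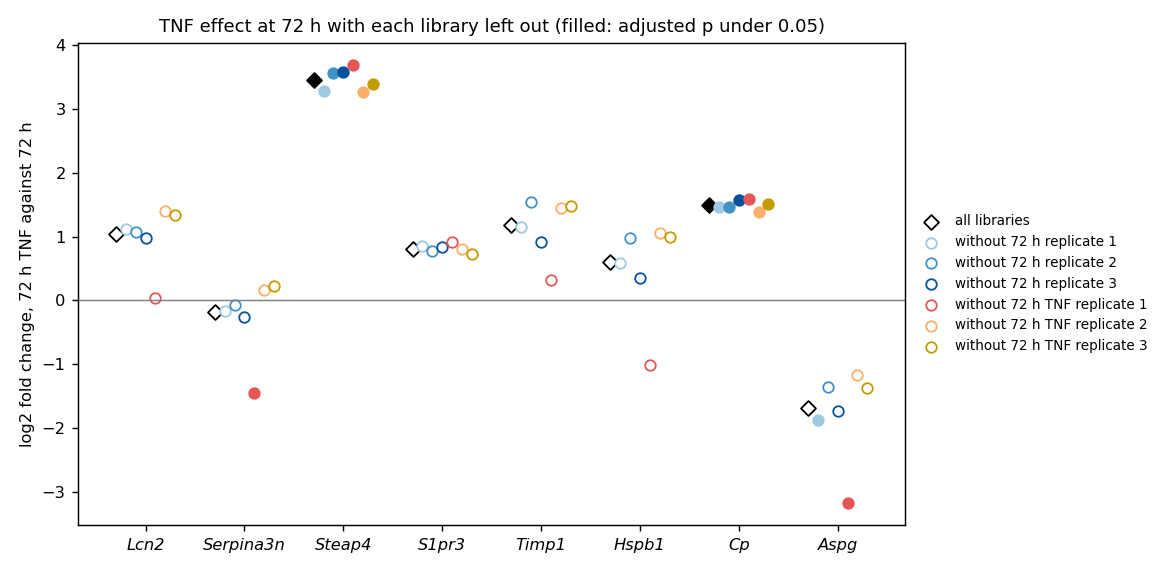
TNF effect at 72 h (log2 fold change against untreated cells) from all libraries (diamonds) and with each library of the 2 groups left out in turn (circles). Filled symbols have an edgeR adjusted p under 0.05. Steap4 and Cp stay in place, while Serpina3n, Aspg, Lcn2, Timp1 and Hspb1 move downward without the first TNF replicate.

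Whether the response to TNF differed between the times was tested as the difference of the 2 TNF effects. Lcn2 was the only marker called: its effect at 72 h was lower than at 24 h by 5.52 ± 1.05 on the log2 scale (edgeR adjusted p = 0.0275). The test called 0.458% of all genes and 1 of 8 markers (12.5%). The Lcn2 call was lost without 24 h replicate 1 or 2, 72 h replicate 2 or 3, or 72 h TNF replicate 3 (edgeR adjusted p = 0.0534 to 0.114), and with single libraries left out the difference ran from -9.24 to -4.79, since the untreated 24 h level rests on 4 counts in a single library. DESeq2 called it with all libraries (-5.57, DESeq2 adjusted p = 0.00342). Serpina3n (-2.80 ± 0.74, edgeR adjusted p = 0.122) and Aspg (-1.83 ± 0.84, edgeR adjusted p = 0.478) joined it only without the first 72 h TNF library (-4.07 and -3.32, edgeR adjusted p = 0.000749 and 0.0174). For Steap4 and Cp, whose effects were smaller at 72 h by 2.55 ± 0.99 and 0.87 ± 0.25 on the log2 scale, the difference between the times did not pass the test (edgeR adjusted p = 0.387 and 0.158). With single libraries left out the Steap4 difference ran from -4.05 to -1.32, the latter without the first 24 h TNF library, and that of Cp from -0.97 to -0.72.

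Between 24 h and 72 h of TNF, Cp was the only marker called, higher at 72 h by 0.56 ± 0.17 (log2, SE, edgeR adjusted p = 0.0386), beside 13.3% of all genes called. Same-numbered TNF libraries of the 2 times deviated together, so the replicate number was also used as a block. In that fit Cp was no longer called (0.55, edgeR adjusted p = 0.0533) and Lcn2 was, lower at 72 h by 1.45 on the log2 scale (edgeR adjusted p = 0.0313). The Cp call was also lost without 24 h TNF replicate 2 or 3 or 72 h TNF replicate 2 or 3 (edgeR adjusted p = 0.0792 to 0.176). Without the first 72 h TNF library, Lcn2 (-2.31, edgeR adjusted p = 0.00387), Hspb1 (-2.72, edgeR adjusted p = 0.00956) and Cp were called. Without the first 24 h TNF library S1pr3 was called too, higher at 72 h by 1.29 on the log2 scale (edgeR adjusted p = 0.0235), and Aspg was called without 72 h TNF replicate 2 (1.64, edgeR adjusted p = 0.0498).

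Without TNF, Lcn2, Serpina3n, S1pr3, Cp and Aspg rose between 24 h and 72 h, after which Lcn2, Serpina3n, Steap4 and Aspg fell to 1 week and Cp kept its level. Neighboring comparisons share libraries, such as the 24 h and 72 h groups that also serve as controls for TNF, so their results are not independent of each other. At 24 h against NSPs, Cp, Aspg and Steap4 were called higher, 3 of 8 markers (37.5%) beside 52.7% of all genes. The median log2 fold change of the markers was 1.64, or 1.28 with genes at 0 in NSPs set to their bound, and that of all genes was 0.06. Cp rose from 64.8, 103 and 109 CPM in NSPs by 1.78 ± 0.18 (log2, SE, edgeR adjusted p = 2.49e-07). Aspg had 1 count in all NSP libraries and 48 at 24 h, a ratio of 57.0 with a 95% exact counting interval of 9.76 to 2298 (edgeR adjusted p = 0.00161). Steap4 had no count in NSPs and 24 at 24 h, at least 9.50-fold higher when 3 counts over the group are taken as the floor (edgeR adjusted p = 0.0386). Of those 24 counts 18 lay in a single library, 24 h replicate 3, and without it, or without any NSP library, the call was lost (edgeR adjusted p = 0.206, and 0.078 to 0.0899). The mural and fibroblast list, mostly Rgs5, Acta2 and Pdgfra, summed to at most 23.8 CPM in NSPs and at least 407 CPM at 24 h. The oligodendrocyte lineage list summed to at least 1061 and at most 456 CPM, and the neural stem cell and proliferation list to at least 2651 and at most 1096 CPM. The part of these lists in the marker values was not tested. Counting intervals and floors cover counting error only.

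From 24 h to 72 h, 6 of 8 markers (75%) were called beside 24.8% of all genes, with a median log2 fold change of 1.99 over the markers and -0.01 over all genes. Lcn2 rose from 4 counts in the group to 88, by 4.2 ± 0.92 (log2, SE, edgeR adjusted p = 0.00287). All 4 counts lay in 24 h replicate 3, and with single libraries left out the Lcn2 difference ran from 3.51 to 7.96. Serpina3n rose by 2.96 ± 0.57 (edgeR adjusted p = 0.000762), Aspg by 2.94 ± 0.59 (edgeR adjusted p = 0.00115) and Cp by 1.43 ± 0.18 (edgeR adjusted p = 1.07e-05), each with no overlap between the groups. Between these times the oligodendrocyte lineage list went from 376 to 456 CPM down to 82.4 to 91.7 CPM, the mural and fibroblast list from 407 to 502 CPM down to 200 to 297 CPM and the endothelial list from 4.61 to 4.89 CPM up to 5.68 to 6.87 CPM, and their part in the marker values was not tested. The receptor gene S1pr3 rose by 1.79 ± 0.48 (log2, SE, edgeR adjusted p = 0.00977), and its call was lost without 24 h replicate 3 (1.54, edgeR adjusted p = 0.052). Timp1 went the other way, from 36 counts in the group to 8, lower by 2.28 ± 0.67 (log2, SE, edgeR adjusted p = 0.0167), and this call was lost without 24 h replicate 1 or 3 or 72 h replicate 3 (edgeR adjusted p = 0.0545 to 0.0766). Steap4 was higher in every 72 h library, but its 2.19 ± 0.83 (log2, SE) did not pass the test (edgeR adjusted p = 0.0657) with all libraries, while it did without 24 h replicate 3 (3.72, edgeR adjusted p = 0.024) and when only the 24 h and 72 h groups were fitted (2.16, edgeR adjusted p = 0.0159).

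From 72 h to 1 week, 4 of 8 markers (50%) were called, all lower, beside 6.63% of all genes in either direction. The median log2 fold change was -2.61 over the markers and 0.00 over all genes tested. Lcn2 went from 88 counts to 1, a ratio of 102 with a 95% exact counting interval of 17.8 to 4060.5 (edgeR adjusted p = 0.00249). Serpina3n fell to 0.397, 0.384 and 1.41 CPM, lower than at 72 h by 4.08 ± 0.61 (log2, SE, edgeR adjusted p = 0.000426), and Aspg to 0.132, 0.274 and 0.563 CPM, lower by 4.81 ± 0.69 (edgeR adjusted p = 0.000272). Steap4 fell to 0, 5 and 2 counts, lower by 4.27 ± 1.03 (log2, SE, edgeR adjusted p = 0.018), a call that was lost without 72 h replicate 2 or 3 or 1 week replicate 1 or 3 (edgeR adjusted p = 0.0564 to 0.0918). Cp held its level: it was at 836, 744 and 944 CPM at 1 week, overlapping with the 72 h libraries (-0.03 ± 0.17, log2, SE, edgeR adjusted p = 0.966). The fall of 4 markers went along with lower sums of the astrocyte list, at most 3247 CPM at 1 week and at least 5696 CPM at 72 h. Other lists also moved without overlap between 72 h and 1 week: mural and fibroblast from 200 to 297 CPM up to 327 to 411 CPM, neurons up to 1856 to 1915 CPM, oligodendrocyte lineage up to 111 to 129 CPM and endothelial down to 4.42 to 4.93 CPM. The part of these lists in the marker values was not tested.

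Against NSPs, the cells of 1 week had higher Cp, by 3.19 ± 0.19 (log2, SE, edgeR adjusted p = 1.01e-10), and higher S1pr3, by 1.11 ± 0.47 (edgeR adjusted p = 0.0492). That is 2 of 8 markers (25%), beside 58.6% of all genes called. The S1pr3 levels were 1.78, 0.384 and 1.19 CPM in NSPs and 2.08, 3.18 and 1.90 CPM at 1 week, and its call was lost without NSP replicate 2 or 3 or 1 week replicate 1 or 2 (edgeR adjusted p = 0.06 to 0.213). Aspg had 1 count in NSPs and 16 at 1 week, a ratio of 15 (95% exact counting interval 2.33 to 628), which edgeR did not call with all libraries (adjusted p = 0.0608) but called without 1 week replicate 1 (edgeR adjusted p = 0.0424) and when only these 2 groups were fitted (3.55, edgeR adjusted p = 0.0183), and which DESeq2 called (DESeq2 adjusted p = 0.00911). Serpina3n did not differ beyond its spread (-0.76 ± 0.70, log2, SE, edgeR adjusted p = 0.358). Lcn2, with 0 and 1 counts, was at the floor in both groups. The oligodendrocyte lineage list summed to 1061 to 1367 CPM in NSPs and 111 to 129 CPM at 1 week, the mural and fibroblast list to 16.5 to 23.8 and 327 to 411 CPM, the neural stem cell and proliferation list to 2651 to 3967 and 1002 to 1481 CPM and the astrocyte list to 5128 to 5364 and 2683 to 3247 CPM. None of these overlapped, and their part in the marker values was not tested.

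**Figure D4:**
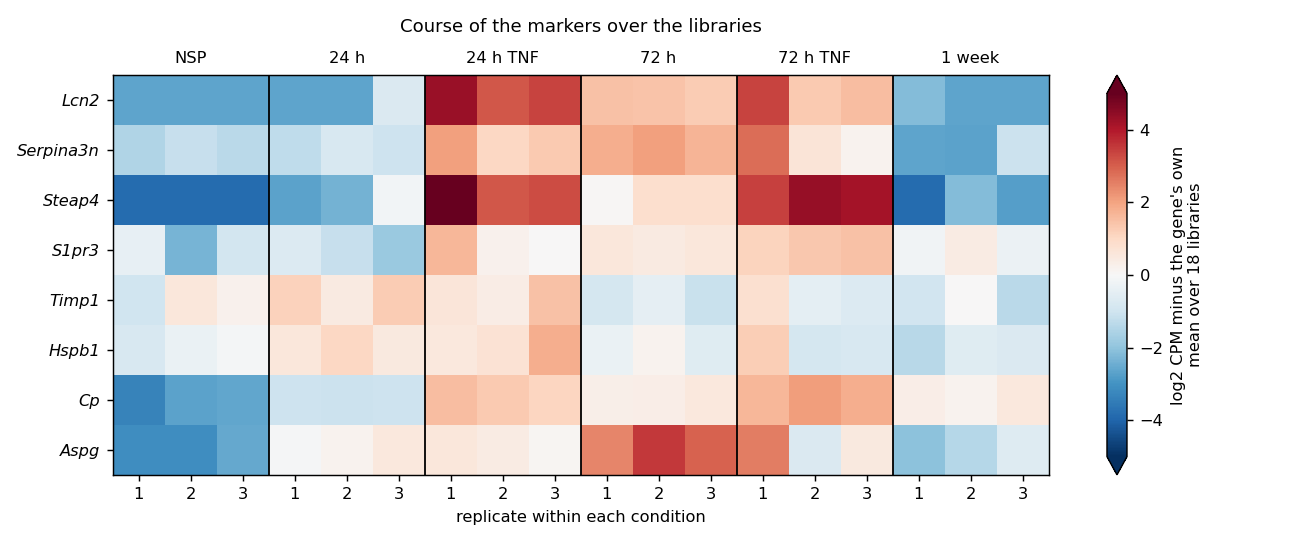
Log2 CPM of each marker in the 18 libraries minus the gene's own mean over them (color, red above and blue below the mean). Cp climbs and stays up at 1 week, Lcn2, Serpina3n, Steap4 and Aspg are low at 1 week as in NSPs, and Timp1 and Hspb1 vary least.

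Per kilobase of exon, Cp was the highest marker in every condition, from 9.64 CPM per kb in NSPs to 252 CPM per kb at 72 h with TNF. The next place changed with the condition: it belonged to Serpina3n in NSPs (0.561 CPM per kb) and at 72 h (5.62), to Timp1 at 24 h (0.976), to Steap4 in both TNF groups (11.7 and 9.15) and to S1pr3 at 1 week (0.534). Within Cp, the levels ordered as NSPs (92.2 ± 24.0 CPM, SD, n = 3), 24 h (318 ± 2.93), 1 week (841 ± 99.9), 72 h (856 ± 86.2), 24 h with TNF (1632 ± 253) and 72 h with TNF (2408 ± 360). Only the neighbors 1 week and 72 h overlapped in this order. For Serpina3n the levels were 0.730 ± 0.588 CPM at 1 week, 1.16 ± 0.152 in NSPs, 1.47 ± 0.262 at 24 h, 9.17 ± 3.51 at 24 h with TNF, 10.2 ± 10.4 at 72 h with TNF and 11.6 ± 1.57 at 72 h. Its 3 low conditions overlapped with their neighbors, as did its 3 high ones. For Steap4, the 2 TNF groups stood highest and overlapped with each other (36.9 ± 36.0 CPM at 24 h and 28.9 ± 9.19 CPM at 72 h, SD, n = 3), above 2.59 ± 0.737 CPM at 72 h, 0.614 ± 0.739 CPM at 24 h, 0.138 ± 0.137 CPM at 1 week and no count in NSPs. For Lcn2 the order was 24 h with TNF (9.60 ± 4.57 CPM), 72 h with TNF (3.82 ± 3.33), 72 h (1.86 ± 0.136) and 24 h (0.109 ± 0.188), with 1 count at 1 week and none in NSPs. The 72 h TNF group overlapped with both of its neighbors, while 72 h and 24 h did not overlap. Aspg peaked at 72 h without TNF (8.57 ± 3.28 CPM), and S1pr3 at 72 h with TNF (6.15 ± 0.777 CPM).

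Among other genes named as reactive astrocyte markers, some were called and others were not. A second group of 5 pan-reactive genes (Gfap, Vim, Cd44, Osmr and Cxcl10) had 2 called higher at 24 h and, at 72 h, 1 higher and 1 lower, which is 40% of the group at each time beside 3.5% and 9.56% of all genes. Its medians were 0.34 and 0.04 on the log2 scale. Osmr, the receptor of oncostatin M, rose at 24 h by 2.04 ± 0.30 (log2, SE, edgeR adjusted p = 0.000453) and was not called at 72 h (0.83 ± 0.28, edgeR adjusted p = 0.0656), where DESeq2 (DESeq2 adjusted p = 0.0462) and edgeR without 72 h TNF replicate 3 (edgeR adjusted p = 0.036) called it. The chemokine Cxcl10 rose by 5.97 ± 0.63 at 24 h and 2.13 ± 0.39 at 72 h (log2, SE, edgeR adjusted p = 1.31e-05 and 0.00129). Gfap ran from 463 to 1871 CPM with TNF at 24 h and from 864 to 949 CPM without, and was not called (0.12 ± 0.54, log2, SE, edgeR adjusted p = 0.959, and -0.78 without the first TNF library, edgeR adjusted p = 0.636). It was lower by 2.31 ± 0.56 at 72 h (log2, SE, edgeR adjusted p = 0.0128), a call that was lost without 72 h replicate 2 or 72 h TNF replicate 2 or 3 (edgeR adjusted p = 0.0577 to 0.0652), while without the first 72 h TNF library the difference was -3.44 (edgeR adjusted p = 0.000498). Vim and Cd44, an intermediate filament and a matrix receptor, were not called at either time (0.34 and 0.17 at 24 h, 0.04 and -0.10 at 72 h, log2).

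The A1 set (12 genes, 8 of them tested) had 25% of its tested members called at each time, beside 3.5% and 9.56% of all genes. At 24 h the 2 called higher were the interferon-inducible GTPase Gbp2 (2.52 ± 0.40, edgeR adjusted p = 0.000991) and the MHC class I gene H2-D1 (1.72 ± 0.26, edgeR adjusted p = 0.000605). At 72 h H2-D1 was higher (1.52 ± 0.24, edgeR adjusted p = 0.00039) and the galactosyltransferase gene Ggta1 lower (-2.51 ± 0.40, edgeR adjusted p = 0.00042). Of the A2 set (12 genes, 9 of them tested) edgeR called 0 at 24 h, beside 3.5% of all genes, and 5 had an unadjusted p under 0.05 and DESeq2 called 1. At 72 h it called 3 (33.3%, beside 9.56% of all genes), with Cd109 (0.82 ± 0.24, edgeR adjusted p = 0.0388) and B3gnt5 (0.61 ± 0.19, edgeR adjusted p = 0.049) higher and Tm4sf1 lower (-1.08 ± 0.24, edgeR adjusted p = 0.00616). The calls of Cd109 and B3gnt5 were lost without single libraries (edgeR adjusted p up to 0.253 and 0.127). The medians were 0.20 and -0.13 for A1 and 0.50 and 0.58 for A2 at 24 h and 72 h, beside 2.22 and 0.93 for the 8 markers and -0.01 for all genes at both times.

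**Figure D5:**
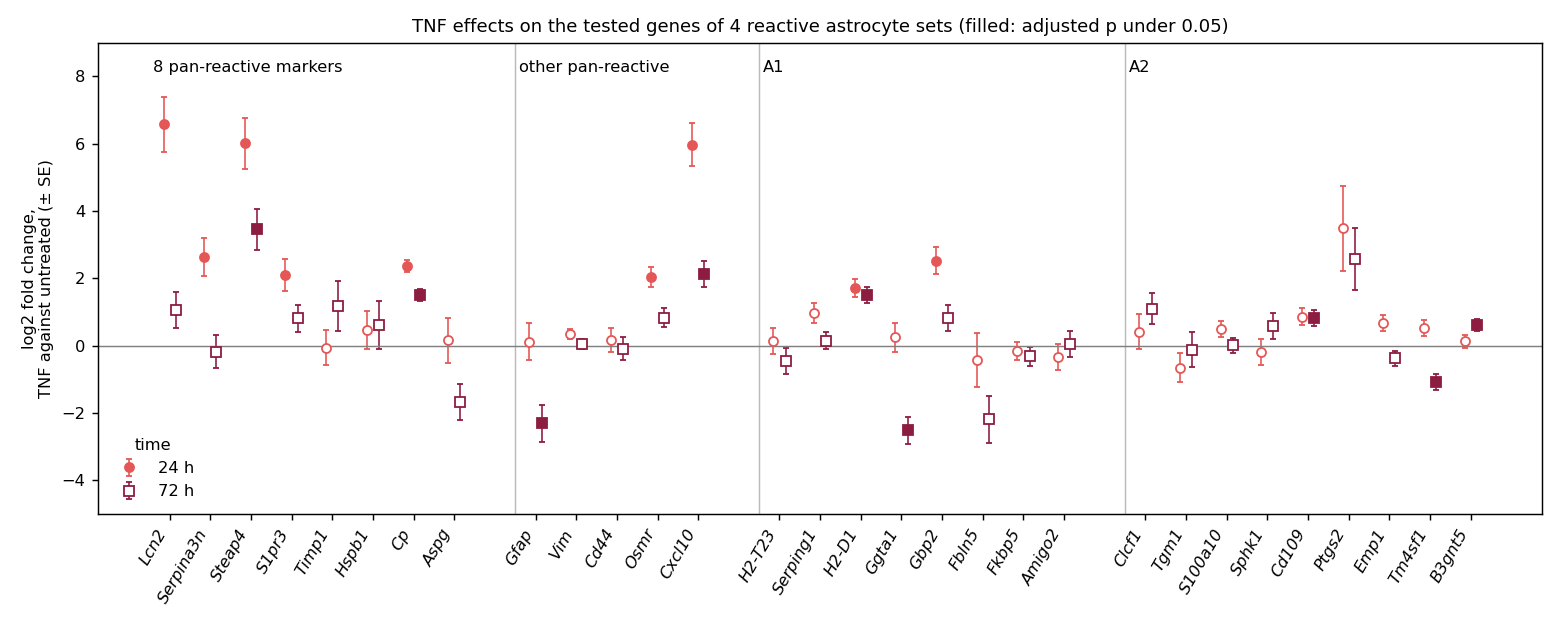
TNF effects (log2 fold change against untreated cells ± SE) at 24 h (circles) and 72 h (squares) for the tested genes of 4 reactive astrocyte sets. Filled symbols have an edgeR adjusted p under 0.05. The rises above 5 on the log2 scale are those of Lcn2, Steap4 and Cxcl10 at 24 h, and the called decreases at 72 h are those of Gfap, Ggta1 and Tm4sf1.

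Close relatives of the markers were set beside them. Of 10 Serpina3 genes next to Serpina3n, only Serpina3h could be tested, with 0 counts at 24 h and 54 with TNF. It was called higher at 24 h by edgeR but not by DESeq2, and by neither at 72 h. How the counting treated reads shared between these related genes is not given in the sources used here, so both Serpina3 values are uncertain. Of the sphingosine 1-phosphate receptors tested, S1pr2 rose at both times (0.90 ± 0.20 and 1.28 ± 0.20, log2, SE, edgeR adjusted p = 0.0122 and 0.000291), while S1pr1 and S1pr5 were not called. The 24 h call of S1pr2 was lost without 24 h replicate 3 or 24 h TNF replicate 1 (edgeR adjusted p = 0.0864 and 0.057). Beside Timp1, the metalloproteinase inhibitors Timp2 and Timp3 were lower with TNF at 72 h (-0.80 ± 0.15 and -0.82 ± 0.13, log2, SE, edgeR adjusted p = 0.00175 and 0.000283) and not called at 24 h, and Timp4 was not called at either time (-0.20 ± 0.26 and 0.28 ± 0.26, log2, SE). Beside Hspb1, the small heat shock genes Cryab and Hspb8 were lower at 72 h (-1.12 ± 0.22 and -0.79 ± 0.23, log2, SE, edgeR adjusted p = 0.00249 and 0.0369), and the Hspb8 call was lost without single libraries (edgeR adjusted p up to 0.203). Heph, the membrane-bound relative of Cp, was lower at 72 h by 0.62 ± 0.19 on the log2 scale (edgeR adjusted p = 0.0462), where Cp was higher, and this call too was lost without single libraries (edgeR adjusted p up to 0.203). Asrgl1, another asparaginase gene, was lower with TNF at both times (-0.95 ± 0.13 and -0.76 ± 0.13, log2, SE, edgeR adjusted p = 0.00023 and 0.000723), while Aspg was not called at either. Steap2 was higher at 72 h by 0.57 ± 0.18 (log2, SE, edgeR adjusted p = 0.0483), a call lost in each fit without a library of either group (edgeR adjusted p = 0.0608 to 0.147).

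Of 16 partners of the markers (receptors, enzymes and transporters of the same pathways), 15 were tested, and edgeR called 2 at 24 h and 1 at 72 h (13.3% and 6.67% of those tested), all higher, beside 3.5% and 9.56% of all genes. These calls are too few to set the shares of the partners apart from those of all genes. Slc40a1, the iron exporter that works with Cp, was higher with TNF at 24 h by 0.85 ± 0.21 and at 72 h by 0.72 ± 0.20 (log2, SE, edgeR adjusted p = 0.0278 and 0.0289), and Fth1, the heavy chain of ferritin, at 24 h by 1.02 ± 0.27 (edgeR adjusted p = 0.0417). These calls were lost without single libraries (edgeR adjusted p up to 0.175 and 0.131 for Slc40a1 and 0.163 for Fth1). The receptors of Lcn2 (Slc22a17 and Lrp2), the enzymes and exporter of sphingosine 1-phosphate (Sphk2, Sgpl1 and Spns2) and the heat shock genes Hsf1, Hspa1a, Hspa1b and Dnajb1 were not called at either time.

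The genes whose course over the 18 libraries was most like that of each marker were found by the root mean square difference of log2 CPM after centering each gene on its own mean. For Lcn2 they were Cdsn and Cxcl10 (1.05 and 1.10, beside the spread of Lcn2 itself of 2.52), and for Steap4 Casp4 and Lcn2 (0.79 and 1.25, beside 3.20). For Cp they were Sema3c and Pfkp (0.49 and 0.53, beside 1.58), for Serpina3n Rgs4 and Il13ra1 (0.76 and 0.86, beside 1.66), and for Aspg C4b and Sntg2 (0.83 and 0.91, beside 1.94). For S1pr3 they were 4930523C07Rik and Gm47830 (0.46 and 0.53, beside 1.07), for Timp1 Mir670hg and 4930432J09Rik (0.40 and 0.47, beside 0.86) and for Hspb1 Mmgt2 and Atf3 (0.46 and 0.46, beside 0.84). Likeness for Timp1 and Hspb1 rests on 134 and 116 counts in all libraries together. Some marker counts may hold reads of neighbors, since the strand setting of the counting is not given in the sources used here: S1pr3 overlaps the antisense Gm32834, Timp1 lies inside Syn1 on the opposite strand, Cp overlaps Hps3 on the opposite strand, and Aspg contains Mir3073a and Mir3073b. Reads from the overlapping stretches cannot be assigned to either gene here.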

How the data were processed

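RNA-seq was run on 18 libraries made after ribosomal RNA depletion. The authors deposited raw counts per Ensembl gene, and the submitters' processing notes name FastQC, Trim Galore, STAR, SAMtools, featureCounts and the build mm10, with versions and the strand setting of counting not given in the sources used here. Gene names came from GENCODE M21 (54723 of 54838 genes). The deposited counts were filtered by condition with filterByExpr, scaled by TMM and fitted over all 18 libraries with the quasi-likelihood test of edgeR 4.0.16 (R 4.3.3), with Benjamini-Hochberg adjustment over the 20067 genes tested and a threshold of 0.05. Log2 CPM used a prior count of 2. The markers and gene lists were chosen with earlier results of these data known. The named genes are the 8 markers, a second group of 5 pan-reactive genes, and for A1 and A2 in each direction up to 2 called genes that changed most. For relatives and partners, counts and the members a sentence turns on are given, and for likeness the 2 nearest genes. Alternatives were DESeq2 1.42.0, RLE normalization, other count filters, a fit restricted to the compared groups, a block for the replicate number and leaving out each library. The deviations of same-numbered TNF libraries from their group means correlated at 0.255 to 0.291 in all 3 pairs between 24 h and 72 h, and pairing was used there only. On simulated data for TNF at 24 h with 20067 genes, the test recovered 49% of genes changed by 1 and 90% of genes changed by 2 on the log2 scale. No library repeated another: all replicate pairs differed by more than sampling noise.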

Additional observations from a re-analysis of the deposited data

Results flagged for a closer look

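The TNF effect differed between 72 h and 24 h by the test of the difference itself for 4 of the named genes. For Lcn2 the effect at 72 h minus that at 24 h was -5.52 (log2, edgeR adjusted p = 0.0275, from -9.24 to -4.79 with single libraries left out), and for the chemokine gene Cxcl10 it was -3.84 (edgeR adjusted p = 0.0444). For Ggta1 it was -2.77 (edgeR adjusted p = 0.0444) and for Tm4sf1 -1.60 (edgeR adjusted p = 0.0439), both of which were lower with TNF at 72 h and not called at 24 h.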

How the results depend on the processing

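The number of markers called moved by over 1.5 times under a few settings. With at least 10 counts required in every library only Cp could be tested, and the count was 1 for TNF at 24 h, TNF at 72 h, 24 h against NSPs, 72 h against 24 h and 1 week against NSPs, and 0 for the difference of the TNF effects and for 1 week against 72 h. The fit of only the groups compared called 0 markers for the difference of the TNF effects and 0 between the TNF times. For 1 week against NSPs DESeq2 called 4 and RLE normalization 1. Leaving out the first replicate of both TNF groups, chosen after seeing the data, called 3 markers for the difference of the TNF effects and 4 between the TNF times. With single libraries left out, the count ran from 3 to 5 for TNF at 24 h, 2 to 4 for TNF at 72 h, 0 to 3 for their difference, 2 to 3 for 24 h against NSPs, 5 to 6 for 72 h against 24 h, 3 to 4 for 1 week against 72 h, 1 to 2 for 1 week against NSPs and 0 to 3 between the TNF times. The fit of only the groups compared ended the calls of S1pr3 for TNF at 24 h, Lcn2 for the difference of the TNF effects, S1pr3 for 1 week against NSPs and Cp between the TNF times (edgeR adjusted p = 0.054, 0.0675, 0.0588 and 0.0931), and it called Hspb1 for 24 h against NSPs (1.49, edgeR adjusted p = 0.0237), Steap4 for 72 h against 24 h and Aspg for 1 week against NSPs. Of 302 alternative values for the 24 called marker results, 259 kept the call, 43 lost it and 0 changed sign.

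Signs changed only for results that were not called with all libraries. With single libraries left out, the log2 fold change of Serpina3n ran from -1.45 to 0.23 for TNF at 72 h and from -1.09 to 0.57 between the TNF times, that of Steap4 from -0.70 to 0.88 and that of Aspg from -0.36 to 1.64 between the TNF times. S1pr3 ran from -0.55 to 0.36 for 24 h against NSPs, Timp1 from -0.55 to 0.13 for TNF at 24 h and from -0.61 to 0.61 for 1 week against 72 h, and Cp from -0.12 to 0.0602 for 1 week against 72 h. Hspb1 ran from -0.16 to 0.72 for TNF at 24 h, from -1.02 to 1.05 at 72 h and from -1.47 to 0.77 for their difference. Without both first TNF replicates, the values between the TNF times were -0.73 for Serpina3n, 1.11 for Steap4 and -0.22 for Aspg, and the difference of the TNF effects for Hspb1 was -1.74. For TNF at 24 h the ranges were -0.78 to 0.45 for Gfap, -0.23 to 0.34 for Cd44, -0.34 to 0.67 for Ggta1, -0.0359 to 0.25 for B3gnt5, -0.31 to 0.15 for Cryab and -0.28 to 0.0876 for Heph. For TNF at 72 h they were -0.0571 to 0.16 for Vim, -0.78 to 0.17 for Cd44 and -0.0509 to 0.81 for Fth1. The cause was not tested.

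The replicate number as a block gave -0.0239 for Gfap at 24 h of TNF, and the block with 72 h replicate 3 unpaired, a library whose column carries another number, gave -0.0234. The latter block gave -0.0619 for Timp1 and 0.0424 for Cp at 1 week against 72 h, and -0.14 for Hspb1 in the difference of the TNF effects. Outside the comparison of the TNF times at most 1 of 3 same-numbered pairs correlated above 0.1, so samples shared only a number there. The block ended the call of Steap4 for 24 h against NSPs (edgeR adjusted p = 0.05) and no other marker call in these comparisons, while the block with 72 h replicate 3 unpaired also ended those of Steap4 for 24 h against NSPs (edgeR adjusted p = 0.0591), Timp1 for 72 h against 24 h (-1.97, edgeR adjusted p = 0.122) and Steap4 for 1 week against 72 h (-4.16, edgeR adjusted p = 0.0927).

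Over all genes, the number called for TNF at 24 h fell from 703 to 363 without any one of the untreated libraries, and to 472 without the first TNF library, on fewer samples. For TNF at 72 h it fell from 1919 to 982 without 72 h replicate 2, 1050 without replicate 3 and 986 with the unpaired block, and rose to 2849 without 72 h replicate 1. For the difference of the TNF effects it was 92 with edgeR, 246 with DESeq2, 56 with at least 10 counts in every library, 40 in the fit of only the groups compared, 24 with the unpaired block, 25 to 136 with single libraries left out and 151 without both first TNF replicates. Between 72 h and 24 h it was 4970, and 3286 with the unpaired block. For 1 week against 72 h it was 1331, and 617 with the unpaired block, 1961 in the fit of only the groups compared and 626 to 1384 with single libraries left out. Between the TNF times it was 2670, and 872 in the fit of only the groups compared and 1237 to 3793 with single libraries left out. Values of Timp1, Hspb1 and, outside TNF and 72 h, Lcn2, Steap4 and Aspg rest on few counts.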
